A study of Mus musculus with 4 samples.

Results

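Interstitial macrophages were 263 of the 30860 lung cells that passed the limits on cell quality (0.852%), chosen from 32121 barcodes by their own RNA. A cell counted as one when it held 200 to 7500 genes and at most 15% mitochondrial UMIs (unique molecular identifiers, each standing for 1 captured RNA molecule), at least 3 UMIs of C1qa, at least 1 of Ms4a7 and at least 1 of Ptprc or Csf1r. It could hold no UMI of Ear2 or Plet1 (alveolar macrophages), Cd3e (T cells), Cdh5 (endothelial cells), Pdgfra (fibroblasts) or Epcam (epithelial cells). The levels of these genes follow from the choice itself and are a description.

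The lungs came from 2 wild-type (WT) mice and 2 Tubb3-/- littermates aged between 8 and 11 weeks. All of them had received 0.8 U/kg bleomycin into the trachea 14 days earlier, and no untreated lung was analysed here, so that every value is one of injured tissue. Tubb3 encodes β-III tubulin, and the Tubb3-/- mice were homozygous for a Cre sequence placed at its start codon, so that the loss was not limited to macrophages. The strain is not given in the sources used here. From each mouse came a whole-cell sample, from which TER-119 red blood cells had been removed, and a mural cell-enriched sample freed of CD31, CD45, EpCAM and TER-119 cells, in which sorted MCAM+ PDGFRα- cells and MCAM- cells were mixed in equal parts. Cells were tagged by mouse and the 4 samples of a kind were pooled. The question asked of these cells is how they differ between the genotypes, among themselves and from other macrophages.

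Interstitial macrophages live within the lung tissue, around vessels, airways and nerves, whereas alveolar macrophages lie on the surface of the air spaces. They need signals through the CSF1 receptor, take up dead cells, make the C1q proteins that start the classical complement pathway, and show antigen to T cells on MHC class II. Cells with the folate receptor FOLR2 and the hyaluronan receptor LYVE1 are found near blood vessels, and those rich in MHC class II are the other commonly described form. After injury, blood monocytes can enter the tissue and turn into similar macrophages.

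The 8 libraries held 3119 to 4815 kept cells and 41462258 to 95036340 gene UMIs each, and the interstitial macrophages had a median of 11957 UMIs and 3311 genes. No barcode was shared within a pool. Between the pools 59 barcodes were shared, none of them among the interstitial macrophages. Tubb3 itself stood lower in both kinds of Tubb3-/- library, with 0.275 and 0.335 CPM (counts of a gene scaled to 1e6 gene UMIs) over all cells of the whole-cell libraries against 1.97 and 0.858 in WT mice, and 0.695 and 0.655 against 5.36 and 3.7 CPM in the mural cell-enriched libraries. In the interstitial macrophages it was almost absent in every mouse, with 2 UMIs in WT mouse 1 and 0 in the other 3 mice, which at their depth allows up to 3.97, 2.74 and 3.91 CPM. The Cre gene had 0 to 2 UMIs in each Tubb3-/- library over all cells, 0 in the WT libraries and 0 in these macrophages. The X-inactivation RNA Xist and the Y-linked Ddx3y gave the same reading in both libraries of each mouse. Mouse 1 of each genotype had Ddx3y at 87.1 to 141 CPM over all cells, and mouse 2 of each genotype had Xist at 632 to 649 CPM. The genotypes were thus balanced for sex, and a difference between mice 1 and 2 of a genotype cannot be told apart from one between the sexes.

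Other populations were chosen in the same way for comparison, classical monocytes by Ly6c2 and Plac8 and fibroblasts by Pdgfra and Col1a1, both without C1qa, and alveolar macrophages by Ear2 and Plet1. Their levels of those genes follow from that choice. All 15 interstitial macrophage markers on the list were detected, of which 3 were in the rule. The summed level of the other 12 was 33880 to 46340 CPM in the whole-cell libraries, against 3438 to 5992 in alveolar macrophages, 4868 to 7080 in classical monocytes and 2325 to 2953 in fibroblasts. Of the 12 alveolar macrophage markers, the 10 outside the rule summed to 193 to 448 CPM against 8542 to 13780 in alveolar macrophages, with Krt79, Plet1 and Ear2 at 0, the last pair by the rule. Classical monocyte markers summed to 233 to 404 CPM against 6342 to 9052 in monocytes, which were chosen by a pair of them. Since each population was chosen by marker genes, these sums are descriptions and were not tested.

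Ranked by the ratio of their level to that of all other Ptprc cells in the whole-cell libraries, among 2254 genes of at least 50 CPM in every mouse, the leading genes outside the rule were St18 (67.6 times), the chemokines Ccl12 (42.3) and Pf4 (41.9), the complement subunits C1qc (33.4) and C1qb (28.8), the Fc receptor-like gene Fcrls (31.9), C3ar1, the receptor for the complement fragment C3a (28.0), and the scavenger receptor Stab1 (26.6). Among the next were Apoe, which carries lipid (17.4), the prostaglandin D synthase Hpgds (14.1) and the fractalkine receptor Cx3cr1 (13.3). Others were Aoah, Cd72, Arhgap22, Blnk, Abca9 and Tmem37, between 11.4 and 22.7 times. No test was made, since the rule had chosen these cells by their RNA.

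The C1q level was even across mice. C1qb stood at 5006 and 4614 CPM in the WT whole-cell libraries and at 5266 and 5417 in those of Tubb3-/- mice, against 174 CPM in alveolar macrophages, 4.98 in monocytes and 4.83 in fibroblasts on average. C1qc stood at 2826, 2508, 2951 and 3084 CPM in the same order. Each of the 263 cells held C1qb and C1qc. Other leading genes were spread less evenly. Ccl12, which attracts monocytes, was found in 53.6% of the cells, and the 13 highest cells held 52.8% of its UMIs. St18 ranged from 55.5 CPM in WT mouse 1 to 386 in WT mouse 2.

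**Figure D1:**
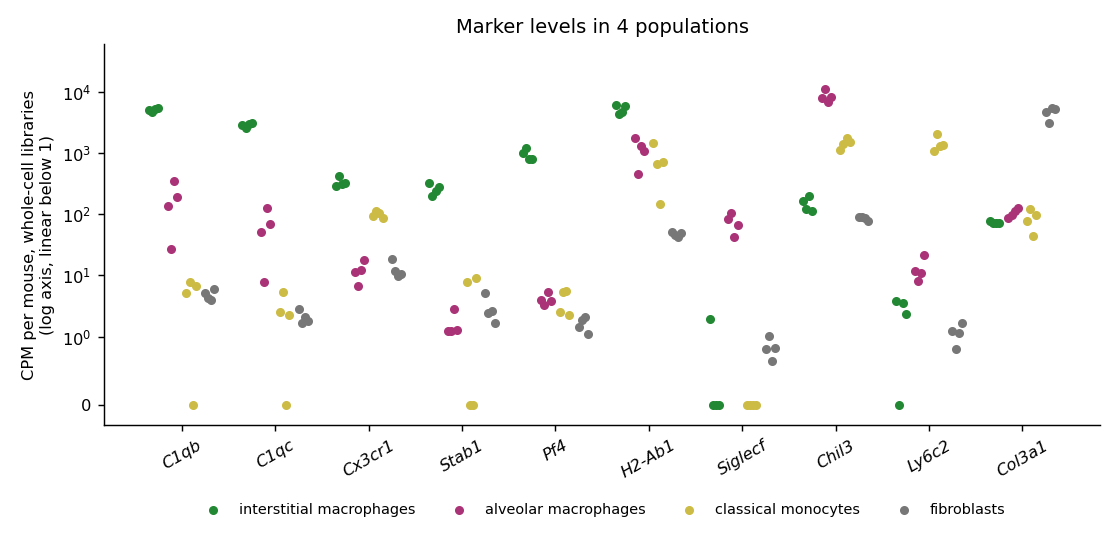
Levels of 10 genes in interstitial macrophages, alveolar macrophages, classical monocytes and fibroblasts of the whole-cell libraries, in CPM on a log axis that is linear below 1, with 1 point for each of the 4 mice. C1qb, C1qc, Cx3cr1, Stab1, Pf4 and H2-Ab1 are highest in interstitial macrophages, while Siglecf and Chil3 mark alveolar macrophages, Ly6c2 monocytes and Col3a1 fibroblasts.

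The C1q genes lie side by side on chromosome 4 of GRCm38, C1qb at 136880129-136886187, C1qc at 136889804-136893065 and C1qa at 136895917-136898803, all on the minus strand. The 250 bases before the RefSeq start (GRCm38.p6) of C1qb and C1qc are shown because these leading genes were found in every one of the cells. Capitals mark AGGAAGT, a core bound by PU.1 and other ETS factors, and GCTGAC, a half-site of MAF factors, each searched on both strands, and both sequences hold them on the opposite strand. C1qb is chr4:136886201-136886450 and C1qc is chr4:136892915-136893164. The RefSeq start of C1qc lies inside the gene span given above, so part of its 250 bases, with the GCTGAC match, falls within that span.
C1qb: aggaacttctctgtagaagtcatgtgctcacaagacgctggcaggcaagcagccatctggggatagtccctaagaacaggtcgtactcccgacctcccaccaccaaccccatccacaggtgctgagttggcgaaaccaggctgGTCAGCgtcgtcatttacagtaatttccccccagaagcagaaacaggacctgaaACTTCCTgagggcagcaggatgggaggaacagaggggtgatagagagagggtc
C1qc: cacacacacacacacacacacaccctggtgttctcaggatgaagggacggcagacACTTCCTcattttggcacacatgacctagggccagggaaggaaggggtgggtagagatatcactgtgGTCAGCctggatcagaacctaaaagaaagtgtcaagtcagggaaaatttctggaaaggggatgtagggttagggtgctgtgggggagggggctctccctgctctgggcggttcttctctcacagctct

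Of the 20 promoters listed for 17 of the leading genes, 8 held AGGAAGT, against 7.69% of all 32851 promoters of that length. GCTGAC was in 6 of the 20, against 12.9% of all. The letters were picked after these sequences had been read, so that the shares are a description, and a match is not a bound site.

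The edge of the choice lay mostly at the genes that exclude other cells. Leaving out 1 term at a time, 60 further cells failed only for a Pdgfra UMI, 48 of them in the mural cell-enriched libraries, and 48 cells failed only for an Ear2 UMI. The cells left out for Ear2 had 12730 CPM of Spp1 against 1885 in the chosen cells, with C1qb at 4276 against 5308. A further 31 cells lacked only Ms4a7 and 25 only C1qa. The C1qa threshold fell in a gap, since no cell with the other terms held 3 UMIs, the lowest chosen cell held 4 and the median was 69. The 12 cells with Plet1, 14 with Cdh5, 7 with Cd3e and 5 with Epcam follow, beside 1 without Ptprc or Csf1r.

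In the whole-cell libraries, interstitial macrophages were 1.23% and 0.353% of the cells of the WT mice (42 and 11 cells) and 0.957% and 0.955% of those of the Tubb3-/- mice (40 and 33 cells). The exact 95% binomial intervals, which cover counting error only, were 0.89% to 1.66% and 0.176% to 0.63% in WT mice, and 0.685% to 1.3% and 0.658% to 1.34% in Tubb3-/- mice. The WT mice lay on both sides of the Tubb3-/- mice. The means, 0.793% ± 0.623 (SD, n = 2) and 0.956% ± 0.00163 (SD, n = 2), differed by 0.163 percentage points (exact two-sided permutation test, p = 1.0, where 2 mice against 2 cannot go below 0.333). Without WT mouse 2 the difference was -0.277. Among Ptprc cells the shares came to 1.78% and 0.586% in the WT and 1.56% and 1.63% in the Tubb3-/- mice (difference 0.41 points, exact permutation p = 1.0), and -0.189 without WT mouse 2. Where the cells were chosen on thinned counts, these shares were 1.58% and 0.39% against 1.83% and 1.65%, which did not overlap (difference 0.754 points, exact permutation p = 0.333, the smallest possible).

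The mural cell-enriched libraries, although depleted of CD45 cells, held 137 of the 263 cells, at 0.503% and 1.5% of the cells of WT mice and 0.768% and 0.632% of those of Tubb3-/- mice. The order of the WT mice was thus the opposite of that in the whole-cell libraries. Ptprc, which encodes CD45 and is a term of the rule, stood at 419 to 503 CPM in the cells from these libraries and at 375 to 519 CPM in those from the whole-cell libraries. Alveolar macrophages, by contrast, had 20 of 880 cells there and classical monocytes 0 of 133. By mouse, 32.3% and 82.5% of the interstitial macrophages of WT mice and 48.1% and 45.9% of those of Tubb3-/- mice came from the mural cell-enriched libraries. The part of the depletion and the sort in these shares was not tested.

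**Figure D2:**
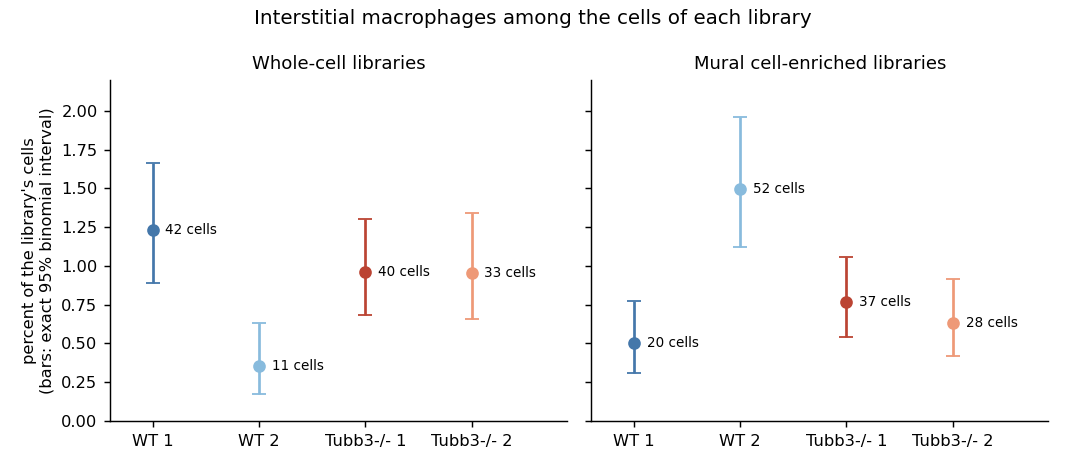
Share of interstitial macrophages among the cells of each library, in percent, with exact 95% binomial intervals and the number of cells, for 4 mice. WT mouse 2 is lowest in the whole-cell libraries (0.353%) and highest in the mural cell-enriched libraries (1.5%).

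Among themselves the cells were compared by Folr2 and Lyve1. A UMI of either gene was found in 78 cells (70 with Folr2, 27 with Lyve1, 19 with both) and in 14, 19, 25 and 20 cells of the WT and Tubb3-/- mice in turn. The other 185 cells had a like depth, with a median of 11910 UMIs against 12011. A cell can miss either RNA by chance, and whether these cells form a range or a type was not tested. After thinning every cell to 2000 UMIs, with 1 cell left out for its depth, 12.9% and 11.3% of the cells held such a UMI in the WT and 9.09% and 23.0% in the Tubb3-/- mice. The Tubb3-/- mice lay on both sides of the WT mice, and the means differed by 3.92 points, with an SD of 1.14 among WT and 9.8 among Tubb3-/- mice (n = 2 each, exact two-sided permutation test, p = 1.0). Without Tubb3-/- mouse 2 the difference was -3.01, in the whole-cell libraries alone it was 1.49, and where the cells were chosen on thinned counts it was -1.63. The order of the mice depended on the depth. Thinned to 4000 UMIs, the shares were 18% and 15.5% in the WT and 20.8% and 25.4% in the Tubb3-/- mice, which did not overlap (difference 6.33 points, exact permutation p = 0.333, the smallest possible). Before thinning they were 22.6% and 30.2% against 32.5% and 32.8%, again without overlap (6.26 points, exact permutation p = 0.333). In the whole-cell libraries, thinned to 2000 UMIs, Folr2 was found in 12.8% of interstitial macrophages, 0.117% of alveolar macrophages and 0.0712% of fibroblasts, and Lyve1 in 5.6%, 0.583% and 0.285%, at median depths before thinning of 11833, 22884 and 17647.5 UMIs. In the mural cell-enriched libraries Folr2 was found in 9.49% of interstitial macrophages and 0.0945% of fibroblasts and Lyve1 in 2.92% and 0.31%. The part of free RNA in these shares was not tested.

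In cells with Folr2 or Lyve1, genes of resident tissue macrophages stood higher in each of the 4 mice. Of 8038 genes at 10 CPM or more, 14.1% were higher in 4 of 4 mice and 7.66% were lower in 4 of 4, with no test made, since the genes that divide the cells were read from the same cells. All 7 other detected genes of the resident list were higher, with a median log2 ratio of 2.13 against 0.12 over all genes. Cd163, the scavenger receptor for haemoglobin, stood at 355, 179, 166 and 274 CPM in these cells against 30.1, 13.1, 10.8 and 3.94 in the others, a ratio of 16.8. F13a1, a coagulation factor subunit, stood at 932, 443, 273 and 652 CPM against 76.9, 58.2, 73.0 and 31.5, a ratio of 9.6. Cbr2, a carbonyl reductase (9.42 times), Pf4 (4.37), Stab1 (3.06), the MERTK ligand Gas6 (3.07) and the mannose receptor Mrc1 (2.35) completed the list. For Cd163 and F13a1 the lowest mouse of the Folr2 or Lyve1 cells lay above the highest mouse of the others.

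MHC class II ran the other way. Of the 12 detected genes for antigen presentation, 0 were higher and 6 lower in 4 of 4 mice, against 14.1% and 7.66% of all genes. The median log2 ratio of these genes was -1.25. Cd74, the chain that guides class II molecules, stood at 9231, 5506, 5647 and 4030 CPM in Folr2 or Lyve1 cells against 20700, 17040, 18320 and 23870 in the others. H2-Eb1 (0.304 times), H2-Ab1 (0.313), H2-DMb1 (0.355), H2-Aa (0.362) and H2-DMa (0.484) were the other genes. Per cell, H2-Aa, H2-Ab1 and H2-Eb1 together had a median of 6.04 UMIs per 10000 in Folr2 or Lyve1 cells against 231 in the others, and 42 of 78 (53.8%) against 27 of 185 (14.6%) lay under 10. The median of Folr2 or Lyve1 cells was 69.4 in WT mouse 1 and 3.19, 5.47 and 9.05 in the other mice.

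**Figure D3:**
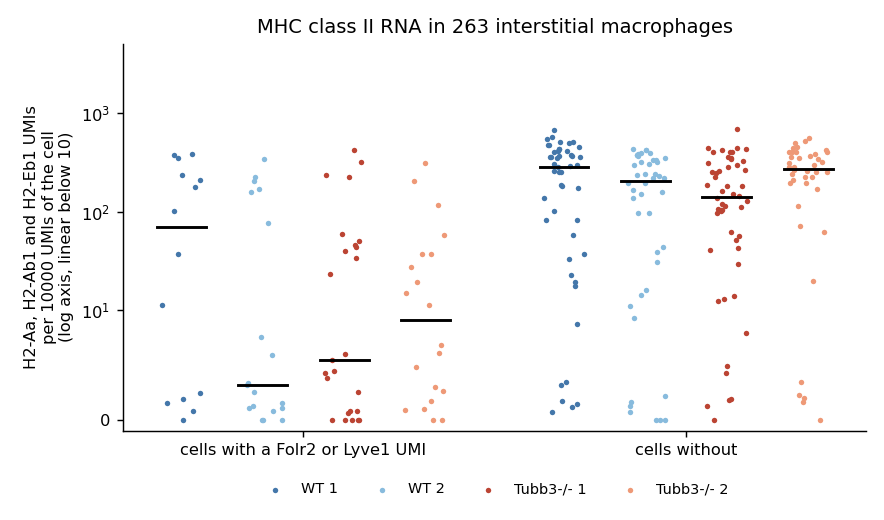
UMIs of H2-Aa, H2-Ab1 and H2-Eb1 per 10000 UMIs in each of the 263 cells (log axis, linear below 10), split by whether the cell held a Folr2 or Lyve1 UMI, with 1 column per mouse and a bar at its median. Medians are 3.19 to 69.4 in cells with such a UMI and 139 to 286 in cells without.

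Other lists varied in direction. Over all genes 14.1% were higher and 7.66% lower in 4 of 4 mice, and each count below stands beside those shares. Ccr2, the receptor that brings monocytes out of the blood, stood at 0, 53.7, 8.44 and 7.71 CPM in Folr2 or Lyve1 cells against 166, 115, 154 and 183 in the others. In the list of chemokine and growth factor receptors, 5 of 21 detected genes were higher and 6 lower in 4 of 4 mice, with Csf1r higher (1.37 times). The decoy receptor Il1r2 was lower, at 0, 0, 16.9 and 3.86 CPM against 26.8, 5.63, 35.1 and 37.4. Among cytokines 4 of 24 were higher, among them Csf1 (1.69 times), and 4 were lower, among them Il1a (0.341), Il1b (0.388) and the EGF receptor ligand Areg (0.264). Bmp2, also higher, stood at 149, 53.7, 16.9 and 73.3 CPM against 10.0, 31.9, 13.5 and 5.91, so that Tubb3-/- mouse 1 differed little, and 13 cells held 73.7% of its 99 UMIs. Complement genes had 8 of 15 higher and 0 lower. The complement inhibitor Cd55 stood at 74.4, 89.5, 19.7 and 108 CPM against 3.34, 1.88, 9.46 and 0, with the smallest gap in Tubb3-/- mouse 1, and 13 cells held 71.8% of its 78 UMIs. Iron and haem genes had 6 of 11 higher, and the ferritin chain Fth1, the 1 gene lower, was at 0.702 times. The transferrin receptor Tfrc stood at 11.4, 44.8, 8.44 and 11.6 CPM against 3.34, 3.75, 8.11 and 3.94, nearly level in Tubb3-/- mouse 1. Lysosome and lipid genes had 8 of 26 higher and 2 lower, with the cholesterol exporter Abca1 at 1.96. Scavenger receptors had 6 of 16 higher and 2 lower, with the fatty acid receptor Cd36 at 3.07. Matrix genes had 0 of 19 higher and 4 lower, among them the protease Mmp14 (0.709) and the urokinase gene Plau (0.393).

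Chemokines had 6 of 19 higher and 1 lower in 4 of 4 mice. Over all genes these shares were 14.1% and 7.66%, beside which each count of this paragraph stands. Ccl8, which draws monocytes and T cells, stood at 1767, 17.9, 487 and 1211 CPM against 151, 7.51, 186 and 104, and was close to absent in WT mouse 2 in both groups of cells. Of transcription factors 5 of 25 were higher, among them Maf (2.19), and 1 was lower. The interferon list had 1 of 21 higher and 3 lower, the glycolysis and hypoxia list 0 of 16 higher and 1 lower, the scar-associated list 1 of 16 higher and 1 lower, and the immediate-early list 4 of 22 higher and 1 lower. Alternative activation genes had 2 of 8 higher, cell cycle genes 1 of 17, tubulins 1 of 8 and the interstitial macrophage markers 5 of 15, with 2 of these markers lower. The 15 markers include 3 terms of the rule, and Csf1r, which is one of them, was among those higher.

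A few single cells carried much of the RNA of some genes. Spp1, a matrix protein of scar-associated macrophages, reached 2708 UMIs in the whole-cell library of Tubb3-/- mouse 2, of which 1895 were in 1 cell. In the whole-cell libraries it stood at 3606 and 88.4 CPM in the WT and at 1950 and 6473 CPM in the Tubb3-/- mice. The proliferation gene Mki67 had 60 UMIs in the 11 whole-cell macrophages of WT mouse 2, of which 46 were in 1 cell. These genes are therefore given without a reading of the group means.

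Over the summed UMIs of each mouse, which were 773021 and 756267 in WT and 1095763 and 767342 in Tubb3-/- mice, no gene passed the test for genotype. edgeR's quasi-likelihood test called 0 of 7469 genes (0% at an adjusted p under 0.05), with a smallest adjusted p of 0.534, and DESeq2 and limma voom called 0 (80 and 332 genes at an unadjusted p under 0.05). At an unadjusted p under 0.05 edgeR gave 352 genes, 135 higher in Tubb3-/- mice (1.81%) and 217 lower (2.91%). The lower Tubb3-/- mouse lay above the higher WT mouse in 17% of the genes, and the reverse order was found in 16.4%. Without WT mouse 1 edgeR called 51 genes, among them the smooth muscle genes Acta2, Myl9 and Cnn1, and without WT mouse 2 it called 10. WT mouse 2 had the most Acta2 (1826 normalized CPM against 332 to 544 in the other mice) and the most macrophages from the mural cell-enriched library, where 690 of its 1341 Acta2 UMIs were in 1 cell.

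The 20 genes named for genotype were chosen for a small unadjusted p and for values that did not overlap, and none passed the adjustment. Lyz2, the lysozyme of myeloid cells, had the smallest p. It stood at 20390 and 19820 normalized CPM in the WT and 13290 and 12840 in the Tubb3-/- mice, a log2 difference of -0.62 ± 0.08 (SE, unadjusted p = 7.15e-05, edgeR adjusted p = 0.534). In fibroblasts of the same mice it stood at 306, 326, 295 and 295 CPM. By library, the order broke in the whole-cell libraries, which had 22610 and 9390 CPM in the WT and 16770 and 15930 in the Tubb3-/- mice, and held in the mural cell-enriched libraries, with 11560 and 21290 against 9011 and 9025. With the mouse number, which separates the sexes, as a block, Lyz2 alone passed (adjusted p = 0.0455). With the library as a covariate its log2 difference was -0.48 (unadjusted p = 0.106, edgeR adjusted p = 0.976). That fit took both libraries of a mouse as independent sums, so its p-values do not measure the spread between mice. Of 18 alternatives Lyz2 passed in 5 and changed direction in 1. Lyz2 and its near-identical neighbour Lyz1 lie on chromosome 10 (GRCm38, 117277331-117282321 and 117287797-117292868, minus strand), so that reads could be split between them.

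Cxcl10, an interferon-induced chemokine that draws T cells, stood at 326 and 109 normalized CPM in the WT and 56.9 and 47.1 in the Tubb3-/- mice (log2 difference -2.05 ± 0.47 SE, unadjusted p = 0.00258, edgeR adjusted p = 0.973). Both WT values lay above both Tubb3-/- values. Over 18 alternatives the log2 difference of Cxcl10 ran from -2.67 to -0.58. In the whole-cell libraries alone the values overlapped, at 159 and 16.1 CPM in the WT and 65.5 and 26.3 in the Tubb3-/- mice. They were, in the mural cell-enriched libraries, 607 and 123 against 45.2 and 71.6, and 129 of the 152 UMIs of WT mouse 1 there were in 1 cell. Fibroblasts of the same mice stood at 201, 61.2, 122 and 81.9 CPM, and the part of free RNA in the values of the macrophages was not tested. Cxcl10 lies on chromosome 5 (GRCm38, 92346638-92348889, minus strand) and overlaps Art3 on the other strand, whose reads could not be told apart from it if the counting did not use strand.

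The other genes with lower values in both Tubb3-/- mice were Fam20c, a kinase of secreted proteins (65.2 and 71.9 against 25.2 and 23.6 normalized CPM, log2 difference -1.48 ± 0.25 SE), the cap-binding translation factor Eif4e (-0.90), the noncoding RNA Eldr (-2.53), the TWEAK receptor Tnfrsf12a (-1.14), the kinases Map2k3 (-0.88) and Sgk1 (-0.74), the interleukin-1 antagonist Il1rn (-0.83) and Pogk (-1.74). Each had an edgeR adjusted p of 0.973. Fam20c, Eif4e, Eldr, Map2k3 and Pogk kept this order in the whole-cell libraries alone, while in the mural cell-enriched libraries Eif4e (119.9 and 223 against 118.7 and 195 CPM) and Eldr (0 and 14.2 against 7.54 and 5.73) overlapped. Il1rn stood at 248.7 and 96.5 CPM in the whole-cell libraries of WT mice against 122 and 153, and Sgk1 at 325 and 112.5 against 209 and 167, so that neither held there. In the mural cell-enriched libraries Il1rn (39.95 and 172.5 against 60.29 and 51.57) and Sgk1 (107.9 and 291.2 against 111.2 and 149.0) overlapped as well, so their order was seen only in the sum of both kinds of library. Tnfrsf12a overlapped in the whole-cell libraries (55.48 and 16.08 against 24.78 and 19.12).

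The genes with higher values in both Tubb3-/- mice were led by Fat3, an atypical cadherin. It stood at 9.70 and 10.9 normalized CPM in the WT and 43.8 and 72.0 in the Tubb3-/- mice (log2 difference 2.46 ± 0.39 SE, edgeR adjusted p = 0.973). The difference was in both kinds of library, at 7.65 and 0 against 40.7 and 74.1 CPM for whole-cell libraries, while the mural cell-enriched libraries had 11.99 and 12.7 against 45.2 and 68.8. It was found in 36 of the 263 cells, and 13 cells held 71.8% of its UMIs. Fibroblasts held more Fat3, at 111, 152, 76.0 and 117 CPM, with no such order. Chp2, a calcineurin-like calcium sensor (11.1 and 4.07 against 24.2 and 38.0, log2 difference 2.00), was found mainly in Folr2 or Lyve1 cells, at 34.3, 8.95, 59.1 and 104 CPM there against 3.34, 1.88, 6.76 and 3.94 in the others. The rest were the ubiquitin ligase Rnf169 (0.82), the transcription regulator Cited2 (0.79), Cd36 (1.03), Stard13 (1.09), Tbc1d17 (1.64), the thioredoxin-binding Txnip (0.68), Cep85 (1.43) and Rin2 (0.65), each with an edgeR adjusted p of 0.973. Cited2, Stard13, Rin2 and Cd36 overlapped in the whole-cell libraries, Cd36 at 74.6 and 129 CPM in WT mice against 103 and 232 in Tubb3-/- mice. Where the choice of cells was made on thinned counts, the differences of Cd36, Chp2 and Lyz2 became -0.49, -0.2 and 0.04.

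**Figure D4:**
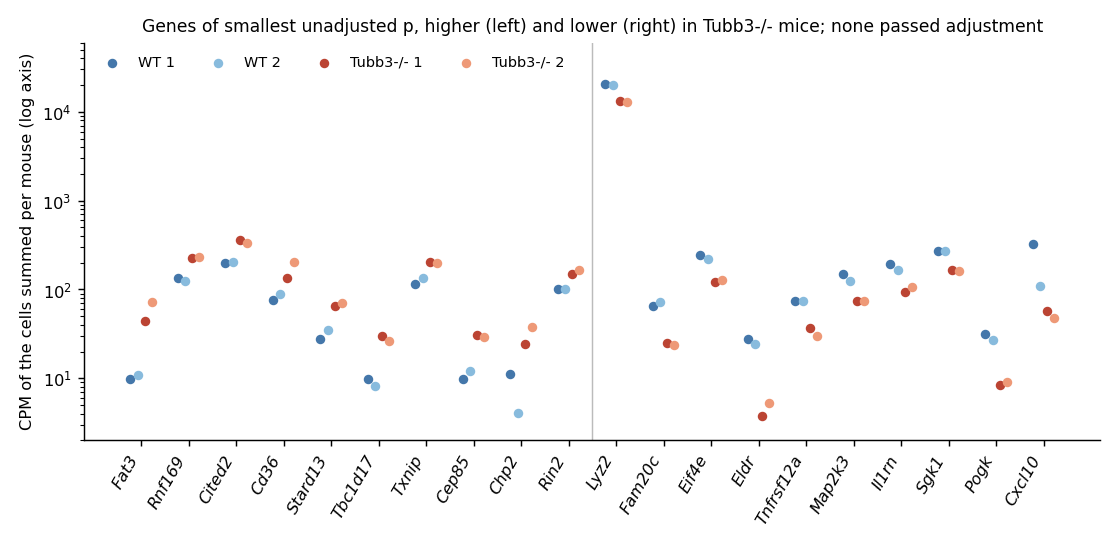
Normalized CPM (log axis) of the 20 genes with the smallest unadjusted p among those whose genotypes do not overlap, summed over the interstitial macrophages of each of the 4 mice. The 10 on the left are higher and the 10 on the right lower in both Tubb3-/- mice, and none of them passed the adjustment.

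By function, no member of any of the 19 lists passed the adjustment. Of 23 measured cytokines and growth factors 7 were lower and 1 higher at an unadjusted p under 0.05 (against 2.91% and 1.81% of all genes). In the Tubb3-/- mice 8 were wholly below the WT mice and 1 above, against 16.4% and 17% of all genes. The median log2 difference was -0.28 against 0 over all genes. Il10, which restrains inflammation, stood at 140 and 61.0 normalized CPM in the WT and 15.9 and 45.8 in the Tubb3-/- mice (log2 difference -1.77, edgeR adjusted p = 0.973). In the whole-cell libraries Il10 overlapped, at 153 and 16.1 CPM against 24.8 and 81.3. Tnf stood at 121 and 168 against 69.0 and 98.2, Osm at 126 and 84.1 against 66.2 and 66.8, and the EGF receptor ligand Hbegf at 49.9 and 51.5 against 19.6 and 26.2. Vegfa, the 1 member higher, stood at 9.70 and 9.49 against 22.4 and 17.0. Il1b stood at 1873 and 955 against 1599 and 1615 and Igf1 at 237 and 403 against 303 and 329, with the genotypes overlapping in both.

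The MHC class II and antigen presentation list had 3 of 12 members lower (Cd83, Cd80 and the protease Ctss) and 0 higher at an unadjusted p under 0.05, with a median of -0.21, against 2.91% lower and 1.81% higher of all genes. H2-Ab1 itself stood at 6673 and 4074 normalized CPM in the WT and 3848 and 5641 in the Tubb3-/- mice, and the genotypes overlapped. The scar-associated list had 3 of 16 lower and 0 higher, against the same shares. Gpnmb stood at 402 and 108.5 against 41.0 and 108.6 and the protease Ctsd at 2056 and 1546 against 1262 and 1327. In the whole-cell libraries Ctsd overlapped, at 2462 and 225 CPM in the WT against 1750 and 1910 in the Tubb3-/- mice. Over all the macrophages, 13 cells held 60.0% of the UMIs of Ctsd and 90.9% of those of Gpnmb. Spp1 stood at 2897 and 461 against 1120 and 3618. Fn1, a matrix gene, stood at 439 and 344 against 361 and 343. Of 18 matrix genes 1 was lower, Thbs1, which was also called between the library types, though not where the cells were chosen on thinned counts, without WT mouse 1 or without Tubb3-/- mouse 2 (edgeR adjusted p = 0.704, 0.124 and 0.112).

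Scavenger receptors had 3 of 16 members higher and 0 lower at an unadjusted p under 0.05, against 1.81% and 2.91% of all genes. These were Cd36, Lrp1 and Mertk, receptors for lipids and dead cells. Mertk stood at 311 and 210 normalized CPM in the WT and 370 and 390 in the Tubb3-/- mice. In the whole-cell libraries Mertk overlapped, at 318 and 161 CPM against 278 and 430. Chemokines had 1 higher and 2 lower of 19, complement genes 1 and 1 of 14, the interferon list 1 and 1 of 20, lysosome and lipid genes 0 and 2 of 26, transcription factors 0 and 2 of 23, the immediate-early list 0 and 1 of 22, alternative activation 1 and 0 of 8, glycolysis and hypoxia 1 and 0 of 16 and tubulins 0 and 1 of 8. The resident list (9 measured), the interstitial markers (15), iron and haem (10), the cell cycle (11) and the receptors (21) had none. The 15 interstitial markers include 3 terms of the rule, whose levels follow in part from the choice of cells. Among the receptors, 7 of 21 lay wholly above the WT mice and 1 below, against 17% and 16.4% of all genes. Csf1r stood at 805 and 729 against 691 and 793 and the lysosomal glycoprotein Cd68 at 541 and 434 against 383 and 491, both with overlap.

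Whether a genotype difference was the same in interstitial and alveolar macrophages was tested within the mice. Of 11572 genes 0 passed (0%) in edgeR's interaction test, with a smallest adjusted p of 0.0577, 564 genes at an unadjusted p under 0.05, and 2 genes called by DESeq2. Lyz2 stood at 24220 and 27640 normalized CPM in alveolar macrophages of WT mice and 37920 and 37020 in those of Tubb3-/- mice, the opposite order to that in interstitial macrophages (log2 difference of the changes -1.16 ± 0.14 SE, adjusted p = 0.0592). Fam20c stood at 18.4 and 14.8 against 46.3 and 37.5 in alveolar macrophages (-2.85 ± 0.33 SE, adjusted p = 0.0577). Cd36 stood at 196 and 288 against 130 and 164 there (1.72 ± 0.23 SE, adjusted p = 0.119). The mural cell-enriched libraries gave 137 of the 263 interstitial but 20 of the 880 alveolar macrophages, so the cell types also differed in the kind of library. The part of the library in these differences was not tested. In the whole-cell libraries alone edgeR called 1 gene, Igha, and the interstitial values of Lyz2 and Cd36 overlapped while those of Fam20c did not. DESeq2 called Fam20c and Igha, and edgeR with RLE factors called Fam20c, Igha and Lyz2. Igha, an antibody chain made by plasma cells and named after its values were seen, stood at 1994 CPM in alveolar macrophages of WT mouse 1 and at 7.38 to 9.05 in the other mice. Without WT mouse 1 the test called 88 genes and without WT mouse 2 it called 30.

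Between the mural cell-enriched and the whole-cell libraries of the same mice, 126 of 5697 genes rose (2.21%) and 13 fell (0.228%) in edgeR's quasi-likelihood test with the mouse as a block. Of the 126 that rose, 119 had a higher level in fibroblasts than in the macrophages of the whole-cell libraries, as had 6 of the 13 that fell and 2442 of all 5697 (42.9%). Acta2, smooth muscle actin, stood at 44.7, 49.9, 42.1 and 49.6 normalized CPM in the whole-cell and 1037, 2310, 1089 and 698 in the mural cell-enriched libraries (log2 change 4.55 ± 0.25 SE, adjusted p = 5.69e-06). Mgp rose by 2.19, Col3a1 by 2.42 and Eln by 3.01. The fibroblast markers on the list rose in 6 of 6 measured genes and the mural ones in 2 of 2. Of the 15 interstitial macrophage markers, 3 were terms of the rule that chose the cells. None of the 15 was called, and Cd68 was lower at an unadjusted p under 0.05. The summed level of the fibroblast list without Pdgfra was 201 to 281 CPM in the whole-cell and 1258 to 1464 in the mural cell-enriched libraries, with Pdgfra at 0 by the rule, and that of the mural list 51.3 to 64.3 against 845 to 2508, with Rgs5 at 0. In alveolar macrophages Acta2 was found in 8.75% of thinned cells of the whole-cell libraries and 45.0% of the 20 cells of the others, at median depths of 22884 and 22917.5 UMIs, and in the interstitial macrophages in 10.4% and 63.5%. The part of free RNA in this was not tested. Of doublets, 7 of the 137 macrophages of the mural cell-enriched libraries were scored as doublets, without which 98 genes were called. Without WT mouse 2 the count was 212 and without Tubb3-/- mouse 1 it was 86.

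The 7 genes that rose and were higher in macrophages than in fibroblasts were Ccl3, Ccl4, Ccl7, Cd86, Nfkbiz, Myom1 and the haemoglobin gene Hbb-bs. Ccl4, a chemokine of activated macrophages, stood at 923, 832, 1101 and 1248 normalized CPM in the whole-cell and 1570, 1491, 1889 and 1807 in the mural cell-enriched libraries (log2 change 0.73 ± 0.14 SE, adjusted p = 0.0141). Every mural cell-enriched value lay above every whole-cell value. Cd86, which costimulates T cells, rose by 0.63 (adjusted p = 0.0386) from 752 to 954 CPM to 1082 to 1459, and Ccl3 by 0.68 (adjusted p = 0.0351). Where the cells were chosen on thinned counts, Ccl4 became -0.01, Ccl3 0.08, Ccl7 0.01 and Cd86 0.18, and none of them passed. None of the 4 passed without WT mouse 1 (edgeR adjusted p = 0.0593 for Ccl7 to 0.206 for Cd86) or without Tubb3-/- mouse 1 (0.102 for Ccl4 to 0.273 for Ccl7), while the log2 changes were 0.62 to 1.23 and 0.63 to 0.94. Of 12 alternatives, Cd86 and Ccl3 lost the call in 6 each, DESeq2 among them (adjusted p = 0.0861 and 0.0864), Ccl7 in 4 and Ccl4 in 3. Hbb-bs stood at 17.0 to 24.9 CPM in the whole-cell libraries and at 612, 3122, 2448 and 17.9 in the others, with 136 of 140, 1806 of 1813 and 1258 of 1263 UMIs of the first 3 in 1 cell each, beside a summed erythroid list of 24.8 to 48.2 against 25.8 to 4346 CPM.

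Of the immediate-early genes, which dissociation and handling can switch on, 3 of 22 were called higher in the mural cell-enriched libraries, 9 of 22 at an unadjusted p under 0.05, and their median log2 change was 0.5. Over all genes tested 5.6% were higher and 3.35% lower at that unadjusted p, and the median was -0.01. Egr1 rose by 1.30 (adjusted p = 0.00498), Jun by 0.93 (adjusted p = 0.00653) and Fos by 0.90 (adjusted p = 0.0195). All 3 stood higher in fibroblasts than in the macrophages of the whole-cell libraries, by 3.94, 4.43 and 1.92 times. Fos and Jun did not pass where the cells were chosen on thinned counts, nor did Fos without WT mouse 1 or Tubb3-/- mouse 1 (edgeR adjusted p = 0.129 and 0.0604) or Jun without Tubb3-/- mouse 2 (0.0506). Chemokines had 4 of 16 called higher and matrix genes 4 of 17, against 2.21% of all genes. Among these matrix genes, Sparc and Timp3 stood higher in fibroblasts than in the macrophages of the whole-cell libraries, by 90.8 and 51.9 times.

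The genes that fell were fewer. Chil3, a chitinase-like protein of alveolar macrophages and monocytes, stood at 181, 125, 214 and 119 normalized CPM in the whole-cell libraries and 0, 56.8, 1.94 and 2.98 in the others (log2 change -3.46 ± 0.63 SE, adjusted p = 0.0109). Its mean in fibroblasts of the whole-cell libraries was 86.5 CPM. Fabp5, a fatty acid carrier of lipid-laden macrophages, fell by 2.00 (adjusted p = 0.00785), from 287 to 702 CPM to 34.9 to 348, against 24.7 CPM in fibroblasts. S100a4 fell by 1.64 (adjusted p = 0.0351), St18 by 1.22 (adjusted p = 0.0194) and the inflammation-limiting Anxa1 by 0.99 (adjusted p = 0.0426). Of 12 alternatives, Anxa1 lost the call in 6, Fabp5 and S100a4 in 4 each and Chil3 in 2, with every direction kept. Without doublets Anxa1 and S100a4 did not pass. None of the 4 passed without Tubb3-/- mouse 1 (edgeR adjusted p = 0.065 for Fabp5 to 0.293 for S100a4) or without Tubb3-/- mouse 2 (0.0733 for Chil3 to 0.236 for S100a4), nor did Anxa1 and Fabp5 without WT mouse 1 (0.206 and 0.054). The others were Cmss1, Gm42418, Lars2, AY036118, Il31ra, Psmd1, Rpl35 and Gm48099. Il31ra did not pass where the cells were chosen on thinned counts, without WT mouse 1 or without Tubb3-/- mouse 2 (edgeR adjusted p = 0.0834, 0.06 and 0.0524). In the scar-associated list Fabp5 was the 1 of 16 called lower, against 0.228% of all genes. At an unadjusted p under 0.05, 6 of the 16 were lower and 0 higher, against 3.35% and 5.6% of all genes. The median log2 change of the list was -0.62 against -0.01 over all genes. The kind of library and the share of cells it gave differed between the mice, which bears on the WT mice in particular. With the library as a covariate, in the fit that took both libraries of a mouse as independent sums, 0 genes were called for genotype.

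**Figure D5:**
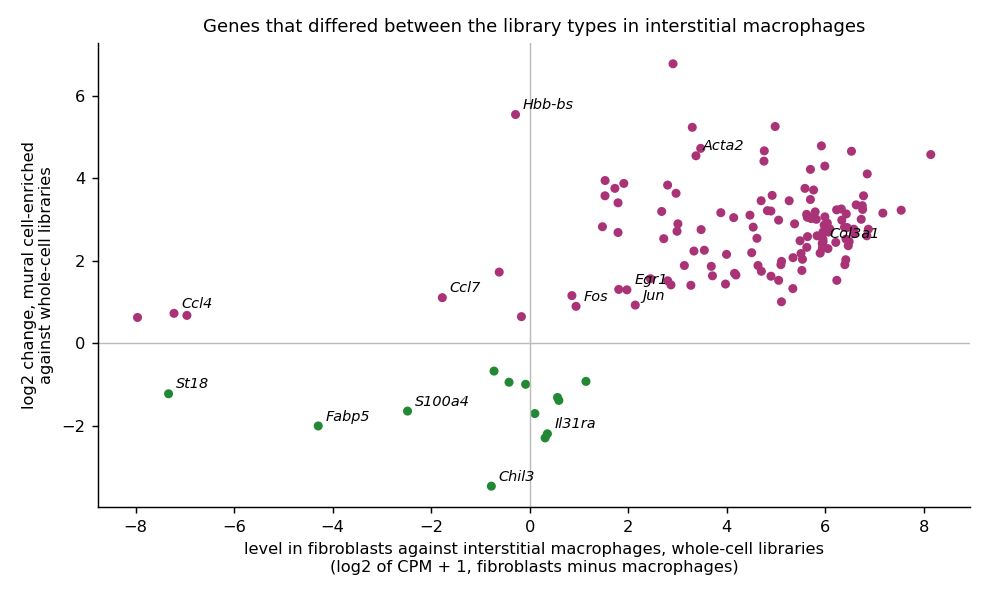
The 139 genes that differed between the library types, each plotted by its log2 change in interstitial macrophages (vertical, mural cell-enriched against whole-cell) and by the difference of log2(CPM + 1) between fibroblasts and interstitial macrophages of the whole-cell libraries (horizontal). Of 126 genes that rose, 119 lie on the fibroblast side.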

How the data were processed

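Droplet RNA-seq (10x 3' chemistry with a multiplexing tag per mouse) had been run on whole-cell and mural cell-enriched lung samples of 4 mice. The authors deposited raw UMI counts per gene and cell, made with Cell Ranger 7.1.0 on mm10 with a Cre gene added, and split by tag. How strand and introns were counted is not given in the sources used here. The 12 tags in the matrices (26.18% to 36.45% of UMIs) were set aside, and 32286 genes kept. The cells, gene lists and comparisons were chosen with earlier results of these data known.

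UMIs of the chosen cells were summed per mouse and tested with edgeR 4.0.16 (quasi-likelihood, TMM, filterByExpr, Benjamini-Hochberg at 0.05) in R 4.3.3, after the scripts had been tested on simulated data. The contrast between the library types was added after the data were seen, with the mouse as a block. DESeq2 1.42.0 and limma 3.58.1 were alternatives. Shares were compared by exact permutation (scipy 1.17.1). With 2 mice per genotype, p-values rest on few animals, and intervals and floors (3 UMIs) cover counting error only. Scrublet (scanpy 1.11.5) marked 2 of 14160 whole-cell barcodes and so did not work there, while it marked 644 of 16700 in the other pool, so doublets were kept in the main values. CPM of a mouse in a test are TMM-normalized, and other CPM are plain. Genes named for genotype were the 10 of smallest unadjusted p in each direction with a mean of 10 CPM or more and no overlap, since none passed. Named in addition were 20 leading genes by ratio, up to 4 members of each list by level with any called, and a fixed set (the genes of the rule, Tubb3, Spp1, Cxcl10, Cd68, H2-Ab1, Fn1 and Cre). A few genes, among them one term of the rule that chose the cells, are not reported here. Other members of lists are named as examples, chosen after their values were seen. Coordinates come from GENCODE vM21 (GRCm38, 32158 IDs matched).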

Additional observations from a re-analysis of the deposited data

Results flagged for a closer look

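Across 60 checks of a gene or of the share of interstitial macrophages in the 4 mice of a library type, 3 had 1 mouse far from the others. A chance rate of about 1 in 20 is for items not chosen by their values. Here 20 of the genes had been chosen for genotype values that did not overlap, so that rate does not hold for them. Rin2 stood at 78.43 CPM in the whole-cell library of WT mouse 1 and at 152.2 to 153.0 in the other 3 mice. Il1rn stood at 172.5 CPM in the mural cell-enriched library of WT mouse 2 against 39.95 to 60.29 in the others. Cxcl10 stood at 607.3 CPM in the mural cell-enriched library of WT mouse 1 against 45.22 to 123.4, and 129 of its 152 UMIs there were in 1 cell.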

How the results depend on the processing

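Leaving out 1 mouse at a time moved the difference in the share among all cells between -0.277 and 0.603 points, among Ptprc cells between -0.189 and 1.01, and in the share of Folr2 or Lyve1 cells between -3.01 and 10.9, the last being -1.63 where cells were chosen on thinned counts and 6.33 when thinned to 4000 UMIs. The Ptprc share differed by 0.754 with the thinned choice. Genes called for genotype numbered 0 to 51 with 1 mouse left out, where the lone mouse is assumed to vary like the others, 74 with no filter, and 1 with the replicate block (Lyz2, adjusted p = 0.0455). The numbers, which separate the sexes, were not taken as pairs in the main test (correlation of same-numbered mice -0.164 over 7469 genes). A crossed pairing, added after seeing the data, put mice of unlike sex into each block and gave 28. The library contrast gave 408 genes with no filter and 86 to 212 with 1 mouse left out. The interaction gave 2 with DESeq2, 3 with RLE factors, 113 with no filter, 2 without doublets, 6 without doublets at 1 threshold in both pools, 3 with C1qa at 5 UMIs, 2 with the thinned choice, 3 at 10% mitochondrial UMIs, 1 in whole-cell libraries and 0 to 88 with 1 mouse left out. The thinned choice shares 163 of its 239 cells with the main one, and of the 76 others 37 held Ear2 or Plet1 UMIs before thinning and 31 Pdgfra. With it, log2 differences became -0.49 (Cd36), -0.2 (Chp2), 0.04 (Lyz2), 0.23 (Cd68) and -0.01 (Ccl4, between libraries). Spp1 became -0.37 with the library as a covariate and -1.99 in the mural cell-enriched libraries, and Fn1 0.02 with that covariate and 0.41 in whole-cell libraries. With 1 mouse left out Spp1 ranged from -0.6 to 2.37, Cd68 from -0.35 to 0.02, H2-Ab1 from -0.5 to 0.23 and Fn1 from -0.33 to 0.04. For all of these the cause was not tested. Of the other values of single genes, 45 lost and 27 gained the call. The remaining 938 values did neither, but they include the medians of the 19 lists, which were counted as unchanged whatever their value.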
